A study of Mus musculus with 18 samples.

Results

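Oocyte-free cumulus complexes cultured without estrogen were compared with intact cumulus-oocyte complexes cultured without estrogen. The comparison took the 3 samples titled OOX and the 3 samples titled COC with no estrogen in the title, 6 of the study's 18 samples, and it covered the 12246 genes and the 21249 single-gene probe sets that passed a filter on low signal. OOX complexes had their oocyte removed and were then cultured, which left the cumulus cells without a living oocyte. COC are complexes cultured with the oocyte in place. No estrogen was given to either group. The cumulus cells came from antral follicles of female mice. The strain, the age and the time in culture are not given in the sources used here. The other 4 groups of 3 samples, which entered the fit to estimate the spread, were complexes cultured with estrogen (E2 OOX, E2 COC) and oocyte-free complexes cultured together with oocytes (OOX+oocytes, E2 OOX+oocytes). Each sample was 1 Affymetrix mouse expression array, and every level below is a log2 signal. The labels do not state whether samples of one group are separate cultures or animals, and p-values therefore cover only the sample-to-sample spread, whose source may be technical.

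Cumulus cells, a form of granulosa cell, wrap the oocyte and stay coupled to it through gap junctions at the tips of thin cell projections. The oocyte secretes growth factors of the TGF-beta superfamily, GDF9 and BMP15 among them, that act on these cells, and it receives metabolites from them in return. Removing the oocyte by microsurgery is the standard way to ask which functions of the cumulus cells depend on it.

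The OOX and COC arrays differed in technical measures as well as in the oocyte. By their names the arrays form 3 series, and the OOX arrays lay in series 2 (replicate 3) and series 3 (replicates 1 and 2), while the 3 COC arrays lay in series 1, so no series held both groups. The signal of the 3' minus that of the 5' control probe set of Gapdh, a common measure of how much of each transcript was copied, was 4.36, 4.52 and 4.31 in OOX, against 2.11, 2.24 and 2.11 in COC. The OOX arrays were all higher, and the E2 OOX arrays were high as well, at 2.96, 3.49 and 4.10, of which the first and second belong to series 1. The other 9 arrays lay at 1.83 to 2.57. The same difference for beta-actin was 1.67, 1.75 and 1.48 in OOX, against 1.31, 1.33 and 0.91 in COC, and the other 12 arrays lay between 0.7 and 1.71. For 18S ribosomal RNA it was 1.28, 1.27 and 0.50 in OOX, against -0.63, -0.61 and -0.63 in COC, and 1.45 on the E2 OOX array of series 3. The bacterial spike-in RNA dap gave 12.39, 12.55 and 12.01 in OOX, against 11.28, 11.03 and 11.31 in COC, so that spike-in signal relative to the total was higher in OOX. OOX replicate 3 also had the narrowest distribution of all 18 arrays (interquartile range 2.54). The labels of E2 OOX replicate 1 disagree on estrogen, which its title names and its source name does not, and the title was followed. The array measures above move with the compared groups, and their part in the results was not tested beyond the alternative fits given below.

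**Figure D1:**
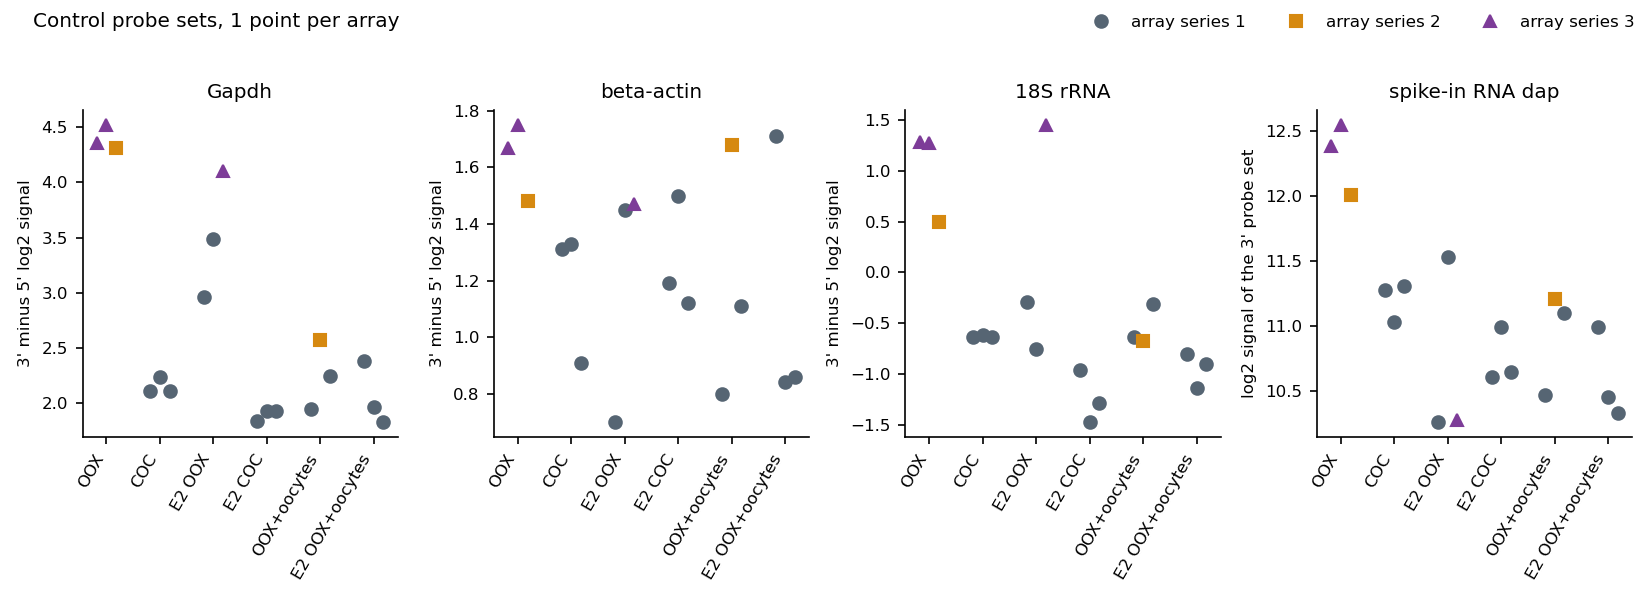
Control probe sets on the 18 arrays, 1 point per array, by group along the x axis and by array series in colour and shape. The y axes give the 3' minus the 5' log2 signal of Gapdh, beta-actin and 18S ribosomal RNA, and the log2 signal of the spike-in RNA dap. The 3 OOX arrays sit at 4.31 to 4.52 for Gapdh and the 3 COC arrays at 2.11 to 2.24.

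Transcripts changed broadly when the oocyte was absent, in both directions and more often by under 2-fold than by more. Of 12246 genes tested, 4743 (38.7%) were called with limma at an adjusted p below 0.05, of which 2207 (18.0%) rose and 2536 (20.7%) fell. The median change over all tested genes was 0.01 on the log2 scale, and a log2 change of 1 is a 2-fold difference. Among the called genes, 2638 (55.6%) changed by under 2-fold, 1342 of them upwards and 1296 downwards. Larger changes were more often falls: 865 genes rose and 1240 fell by at least 2-fold, and 50 rose and 86 fell by at least 8-fold. Of the 7503 genes not called, 6705 had a 95% interval that stayed within a 2-fold change either way. The 3 OOX and the 3 COC arrays did not overlap for 5611 genes (45.8%). Over the genes, the median SD among 3 arrays was 0.274 in OOX and 0.161 in COC, and it was larger in OOX for 70.8% of genes. The fit shares a single spread per gene over all groups, so its errors can understate the scatter of the OOX arrays. Fitted on only the 6 OOX and COC arrays, 3798 genes were called, 1738 higher and 2060 lower. Each log2 change below is followed by ± its SE (standard error, limma), with 3 arrays in each group. In bulk samples such as these, fewer cells of a type and less of a transcript per cell cannot be told apart.

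With array series as a term of the fit, 3122 genes (25.5%) were called. Of the 4743 genes, 2756 (58.1%) were called in the same direction there, as were 83.5% of those changed at least 2-fold, and 28 changed sign without being called. With the beta-actin 3' minus 5' signal as a term 4478 genes were called. With that of Gapdh 298 were called, 259 of them in the same direction as without it and 1 in the other, and the median SE was 2.87 times as large. The Gapdh measure does not overlap between the OOX and COC arrays. With the larger SE, the number of calls cannot tell smaller differences from less precise ones. With the beta-actin term the median SE was 1.08 times as large. Gapdh is itself a glycolysis gene, but the measure is a difference within its transcript. How far it follows the level of the gene or the copying was not tested. The ribosomal RNA 3' minus 5' signal was apart as well, at 0.5 to 1.28 in OOX against -0.63 to -0.61 in COC. So was that of beta-actin, at 1.48 to 1.75 in OOX against 0.91 to 1.33 in COC. The ribosomal RNA signal was not used as a term. The beta-actin and Gapdh terms were added after the data had been seen. List medians with the Gapdh term are given beside the larger list changes below.

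**Figure D2:**
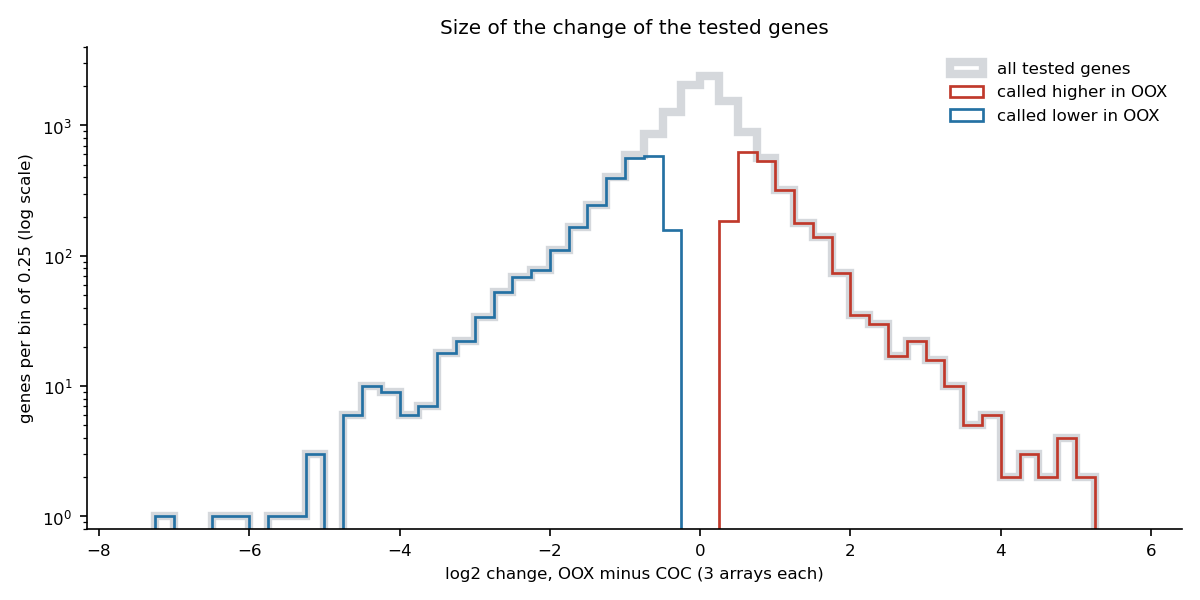
Distribution of the log2 change, OOX minus COC, over the 12246 tested genes (x axis, bins of 0.25; y axis, genes per bin on a log scale). The grey line shows all tested genes, the red and blue lines those called higher and lower. The called falls reach further from 0 than the called rises, with 86 genes at least 8-fold lower and 50 at least 8-fold higher.

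Markers of granulosa cells were present in both groups, and single markers moved in either direction. Foxl2, the transcription factor that maintains granulosa identity, was at 11.74, 11.50 and 11.65 in OOX, against 10.67, 10.56 and 10.56 in COC, and it rose by 1.03 ± 0.177 (limma adjusted p = 0.000173). Amhr2, the receptor of anti-Müllerian hormone, rose by 0.57 ± 0.153. The OOX arrays lay above the COC arrays for both genes. Inha, the inhibin alpha subunit, was at 12.74, 12.48 and 11.97 in OOX, against 13.27, 13.48 and 13.40 in COC, and fell by 0.99 ± 0.16. Fshr, the receptor of follicle-stimulating hormone, fell by 1.32 ± 0.267, a call that was lost with array series as a term of the fit. Of 14 tested granulosa markers, 6 rose and 7 fell, where 18.0% of all tested genes rose and 20.7% fell. Without OOX replicate 1 the number of these markers that rose was 3. With array series as a term 3 rose and 3 fell. Their summed signal was 14.10 to 14.40 in OOX, against 15.05 to 15.21 in COC. The list includes Hsd17b1 and Fst, which were among the brightest genes in COC and fell, as described below. A sum weighs such bright members most, so it does not measure the share of granulosa cells. Of 12 tested cumulus markers, 1 rose and 8 fell, with a median of -1.69. Several cumulus markers are known because the oocyte induces them, so this count is not an independent check of cell identity.

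Few markers of other cell types passed the filter on low signal. Of 16 oocyte markers, 11 did not pass it, and the oocyte growth factor gene Gdf9 was at 6.63, 7.01 and 7.19 in OOX, against 6.89, 6.90 and 6.84 in COC, with the groups overlapping. Of the 5 that passed, 1 was called: Bcl2l10, a BCL2 family gene expressed in the ovary, was at 3.78, 4.18 and 5.25 in OOX, against 8.14, 8.71 and 8.09 in COC, and it fell by 3.91 ± 0.339. The summed signal of the oocyte list was 9.13 to 9.59 in OOX, against 9.69 to 9.99 in COC. This sum includes Bcl2l10, and how far the gap rests on that gene alone was not tested. Markers below the filter lay either way. Zp3 had a mean of 5.05 in OOX, against 4.69 in COC, and Kit a mean of 4.43 in OOX, against 4.63 in COC. None of the 3 endothelial, 4 leukocyte and 1 erythroid markers that passed the filter was called. Of 6 theca and stroma markers 1 rose (Dcn, described below) and 2 fell, the hedgehog targets Gli1 (-1.68 ± 0.176) and Ptch1 (-1.22 ± 0.177). The part of these markers in the results was not tested. Acta2, a smooth muscle actin that granulosa cells also express, fell by 1.91 ± 0.315. With estrogen, the 2 E2 OOX arrays and the 3 E2 COC arrays of array series 1 gave differences of opposite sign for Acta2 (3.33) and Ptch1 (0.93), both called.

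Beyond the 8 largest changes in each direction, the next 12 rises included genes of the cell surface and the matrix. Dcn, which encodes the proteoglycan decorin, was at 9.05, 9.03 and 9.15 in OOX, against 4.69, 4.54 and 4.57 in COC. Adgrl2, a latrophilin adhesion receptor, was at 11.08, 11.01 and 11.44 in OOX, against 7.55, 7.35 and 7.03 in COC, and Ghr, the growth hormone receptor, at 9.44, 9.51 and 10.53 in OOX, against 5.46, 6.35 and 6.14 in COC. The lowest OOX array lay more than 3 log2 units above the highest COC array in each of these 3 genes. Dcn rose by 4.48 ± 0.233, Adgrl2 rose by 3.87 ± 0.189 and Ghr rose by 3.84 ± 0.333, with limma adjusted p-values of 1.05e-10 to 9.45e-08. Nrp2, a co-receptor for semaphorins and vascular growth factors, rose by 3.83 ± 0.297, and Cav1, the coat protein of caveolae, rose by 3.89 ± 0.336. The rest of the group holds the kinase gene Mark1 (4.35 ± 0.238), the MAP kinase phosphatase gene Dusp4 (4.32 ± 0.227), the secreted glycoprotein gene Stc1 (4.12 ± 0.284), the scavenger receptor gene Scara3 (4.07 ± 0.311) and the DNA-binding protein gene Arid5b (3.82 ± 0.27). Plat, which encodes tissue-type plasminogen activator, rose by 3.78 ± 0.287 and Aldh1a1, a retinaldehyde dehydrogenase, by 3.65 ± 0.339. These genes were picked for the size of their change and for groups that do not overlap, and neither counts as support for them.

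The matching 12 falls began with Inhbb, the beta B subunit of inhibins and activins, at 4.87, 5.76 and 6.35 in OOX, against 10.52, 10.47 and 10.01 in COC. Nupr1, a stress-induced nuclear protein gene, was at 7.38, 7.46 and 7.36 in OOX, against 12.17, 11.83 and 11.60 in COC. Sardh, a mitochondrial enzyme of sarcosine breakdown, was at 7.27, 7.07 and 6.95 in OOX, against 11.44, 11.47 and 11.35 in COC. In all 3 genes the OOX arrays stayed more than 3 log2 units below the COC arrays. Inhbb fell by 4.67 ± 0.323, Nupr1 fell by 4.47 ± 0.284 and Sardh fell by 4.32 ± 0.189 (limma adjusted p-values of 3.35e-11 to 6.99e-09). The other members were Plekhd1 (-4.64 ± 0.272), the ubiquitin ligase partner Ube2c (-4.64 ± 0.402), 4933431K23Rik (-4.60 ± 0.236), Dynap (-4.56 ± 0.329), the sphingosine phosphate phosphatase gene Sgpp2 (-4.52 ± 0.342), the phospholipase gene Pla1a (-4.47 ± 0.306), Fam81a (-4.46 ± 0.318), Smim5 (-4.41 ± 0.203) and Gm2102 (-4.39 ± 0.293). Inside array series 1 with estrogen, Inhbb changed by -6.31, Nupr1 by -4.15 and Sardh by -4.00, while the differences of Sgpp2 (0.26) and Gm2102 (0.82) were not called.

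A smaller set crossed from low to high signal or back. Of the 12246 tested genes, 16 lay above the array's 75th percentile on every OOX array and below its median on every COC array, and 46 did the reverse. All of them were called. The gap between the groups follows from how these genes were picked, and neither the gap nor the calls count as support for them. Among those high in OOX were Frmd4b, a scaffold protein gene, at 8.87, 8.30 and 9.06 in OOX, against 2.78, 5.22 and 3.35 in COC, and Mamdc2, a gene for a secreted proteoglycan, at 9.20, 9.13 and 9.39 in OOX, against 4.45, 4.78 and 4.32 in COC. The COC arrays spread more than the OOX arrays for Frmd4b. Frmd4b rose by 4.96 ± 0.444 and Mamdc2 rose by 4.72 ± 0.33. Others in this set were Pamr1, which rose by 3.40 ± 0.323, and the non-receptor tyrosine kinase gene Tec, which rose by 3.39 ± 0.3. In the other direction, Dynap was at 3.15, 3.68 and 4.25 in OOX, against 8.07, 8.67 and 8.03 in COC.

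Among the called changes of 2-fold to 4-fold, the genes named next were picked for the largest change relative to its SE. The endothelin gene Edn1 was at 9.25, 9.22 and 9.38 in OOX, against 7.63, 7.59 and 7.58 in COC, and Chd3, a chromodomain helicase gene, at 10.59, 10.53 and 10.30 in OOX, against 8.72, 8.65 and 8.60 in COC. Evc2, which encodes a hedgehog pathway protein of the ciliary base, was at 8.99, 9.05 and 8.95 in OOX, against 10.87, 11.04 and 10.99 in COC. Within each group these genes spread by less than 0.4 log2 units, far less than the gap between groups. Small spreads, errors and p-values follow from how the genes were picked and do not count as support for them. Edn1 rose by 1.68 ± 0.129, Chd3 rose by 1.82 ± 0.167 and Evc2 fell by 1.97 ± 0.131, with limma adjusted p-values of 4.49e-09 to 1.83e-07. Further precise rises were those of Ier5l (1.73 ± 0.143), the ciliary kinase gene Cilk1 (1.90 ± 0.164), the membrane-bending protein gene Mtss1 (1.92 ± 0.167), Igdcc4 (1.96 ± 0.173), Chd9 (1.87 ± 0.174) and the cation exchanger gene Slc24a4 (1.78 ± 0.165). Further precise falls were those of Mpped2 (-1.94 ± 0.144), the sorting nexin gene Snx18 (-1.85 ± 0.137), Hacd1, an enzyme of fatty acid elongation (-1.80 ± 0.144), the LIM protein gene Csrp2 (-1.71 ± 0.138) and Pcsk5, a convertase that cleaves hormone and growth factor precursors (-1.66 ± 0.134).

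Most of the brightest signals differed by under 2-fold between the groups. The share of genes called was 24.4% in the lowest quartile of tested genes by mean signal and 47.1% in the highest. Of the 100 genes with the highest mean signal in COC, 2 rose, 20 fell and 78 were not called, and all 78 of the last had a 95% interval within a 2-fold change. Ranking by the COC signal favours falls in advance, so the excess of falls does not count as a result. In the highest quartile by the mean of both groups, 600 genes rose and 843 fell. The ribosomal protein gene Rps7 was at 13.88, 13.90 and 13.76 in OOX, against 13.81, 13.80 and 13.84 in COC, and Oaz1, the antizyme that limits polyamine synthesis, was at 13.25, 13.26 and 13.00 in OOX, against 13.18, 13.19 and 13.20 in COC. Both genes were picked because their intervals lay nearest to no change, and the groups overlapped for both. Among the falls in this bright set, Hsd17b1, which makes estradiol from estrone, was at 8.89, 8.97 and 8.71 in OOX, against 13.01, 13.13 and 13.14 in COC, and Fst, the activin-binding protein follistatin, at 10.08, 9.43 and 9.14 in OOX, against 12.71, 12.92 and 12.95 in COC. Hsd17b1 fell by 4.24 ± 0.206 and Fst fell by 3.31 ± 0.206. Cyb5a, the electron carrier cytochrome b5, fell by 1.78 ± 0.134, the mitochondrial protein gene Fam162a fell by 1.70 ± 0.143, the glycolytic enzyme gene Tpi1 fell by 1.64 ± 0.168 and the fatty acid carrier gene Fabp5 fell by 1.54 ± 0.168. Tsc22d1, a leucine zipper protein gene, rose by 0.67 ± 0.117. RMA includes a quantile step that gives all arrays a like distribution, and its part in this was not tested.

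**Figure D3:**
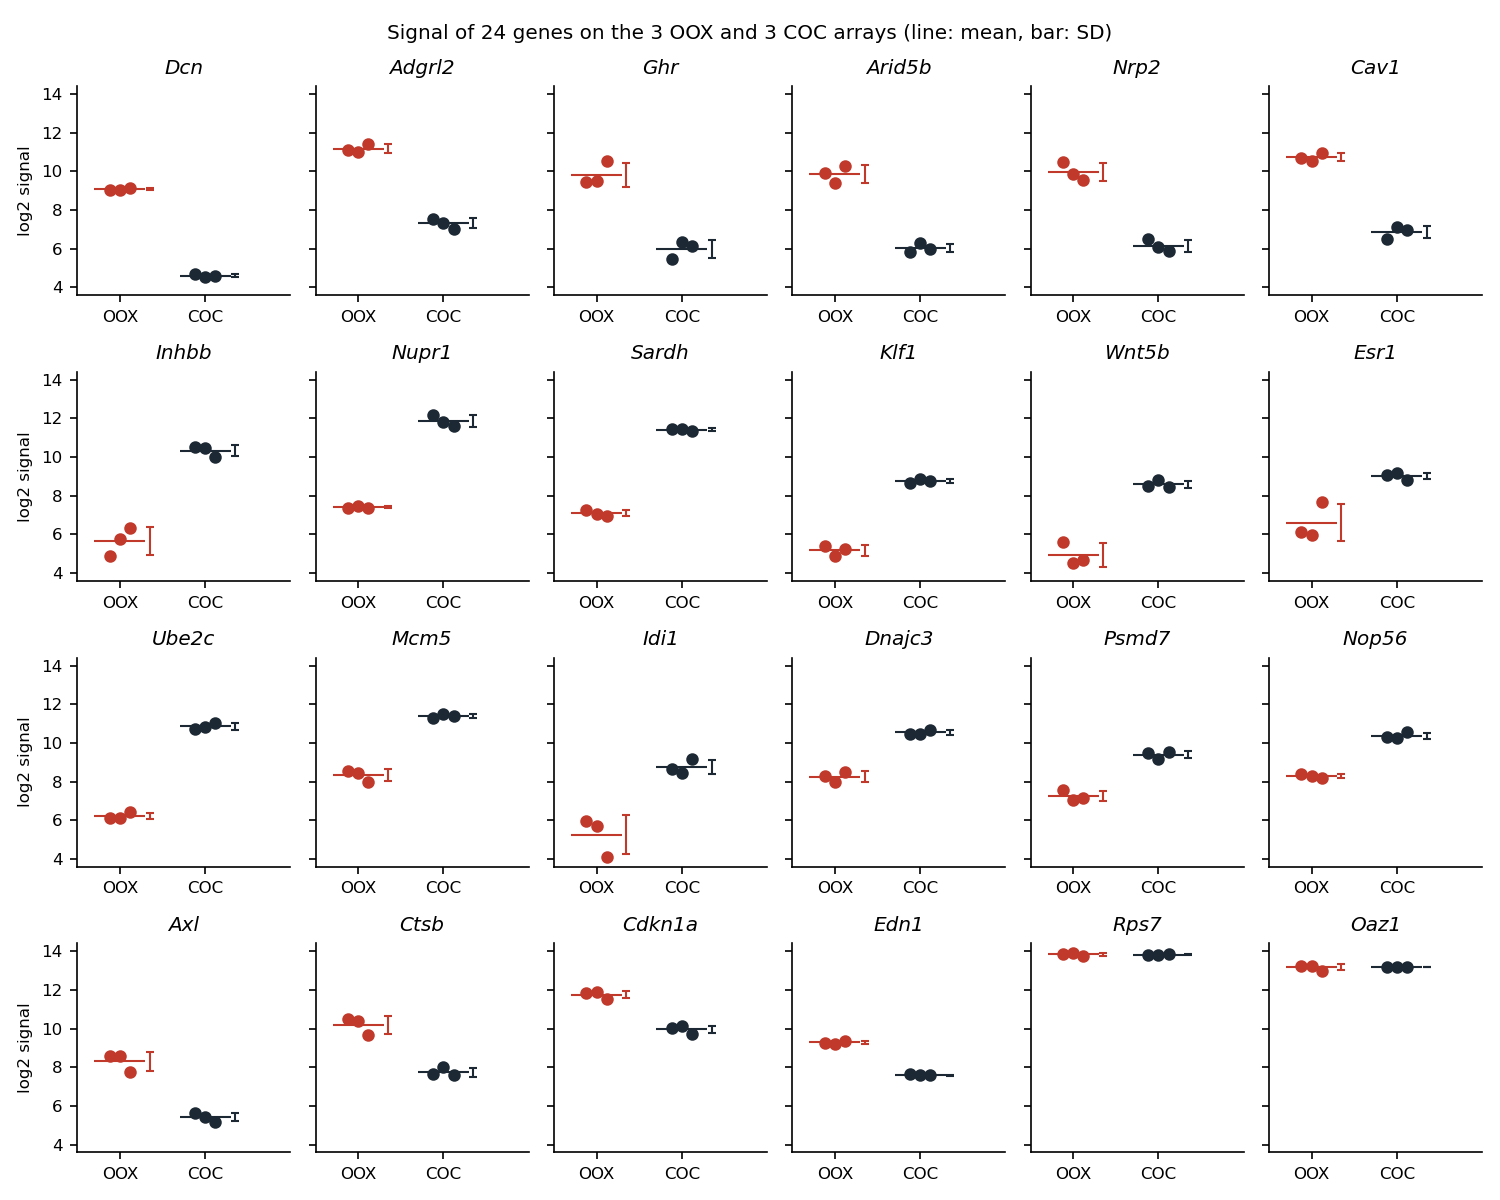
Log2 signal (y axis) of 24 genes on the 3 OOX arrays (red, left) and the 3 COC arrays (black, right), with 1 point per array, the group mean as a line and the SD as a bar. The groups overlap for Rps7 and Oaz1 and are apart for the other 22 genes shown.

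Genes of cell division were lower in OOX almost without exception. Ube2c, the enzyme that feeds ubiquitin to the anaphase-promoting complex, was at 6.13, 6.11 and 6.40 in OOX, against 10.70, 10.80 and 11.05 in COC. Aurkb, the kinase of the chromosomal passenger complex, was at 5.30, 4.24 and 4.20 in OOX, against 7.99, 8.74 and 9.14 in COC. Mcm5, part of the replicative helicase, was at 8.57, 8.43 and 8.00 in OOX, against 11.27, 11.48 and 11.39 in COC. The OOX arrays lay more than 2 log2 units below the COC arrays for these genes. All 31 tested genes of mitosis and spindle fell, 30 of them by at least 2-fold, with a list median of -2.26. Aurkb fell by 4.04 ± 0.361 (limma adjusted p = 1.33e-07). Of 30 DNA replication genes 29 fell, with a median of -1.69: the licensing factor gene Cdc6 fell by 3.21 ± 0.336, the primase gene Prim1 fell by 3.04 ± 0.294 and Mcm5 fell by 3.05 ± 0.213. Beside the counts stands the share of all tested genes that fell, 20.7%. Among the series 1 arrays with estrogen, 31 mitosis genes and 28 replication genes fell as well, where 14.4% of all tested genes fell. These series 1 arrays are the 2 E2 OOX and 3 E2 COC arrays, none of which enters the contrast of OOX with COC. With the Gapdh term the medians were -1.27 for mitosis, with 3 genes called lower, and -1.50 for replication, with 5.

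Genes of repair, nucleotide supply and chromatin assembly were lower too. Uhrf1, which carries DNA methylation through replication, was at 5.43, 5.20 and 5.07 in OOX, against 8.87, 9.14 and 9.05 in COC. The OOX arrays all lay below the COC arrays, and Uhrf1 fell by 3.79 ± 0.199 (limma adjusted p = 2.27e-10). Of 14 genes of homologous recombination and Fanconi repair 10 fell and none rose, with a median of -1.32, and Brca1 fell by 1.96 ± 0.323. Over all tested genes 20.7% fell and 18.0% rose. Of 22 genes of nucleotide and one-carbon synthesis 15 fell and none rose, with a median of -0.83. Among them, the thymidine kinase gene Tk1 fell by 3.75 ± 0.385, the mitochondrial folate enzyme gene Mthfd2 fell by 2.91 ± 0.193, the serine hydroxymethyltransferase gene Shmt2 fell by 2.83 ± 0.208 and the ribonucleotide reductase gene Rrm2 fell by 2.79 ± 0.224. The chromatin list had 13 falls and 1 rise among 23 genes, with a median of -0.63, and with array series as a term 8 genes fell. The DNA-bending protein gene Hmgb2 fell by 1.92 ± 0.243 and the remodeller gene Hells fell by 1.60 ± 0.204. With the Gapdh term the list medians were -1.52 for repair, -0.86 for nucleotides and -0.36 for chromatin.

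Promoters of these genes were read from RefSeq to show what the division genes share in sequence. Windows of 250 bases before to 50 bases after the start were matched by symbol for 9897 of the 12246 tested genes, and motifs were searched on both strands. The letters TTTGAA, the core of the element that represses cell cycle genes in resting cells, stood in the windows of 21 of 27 mitosis genes (77.8%), against 11.3% of tested genes and 18.1% of all 27025 genes with a window. CCAAT, the NF-Y box, stood in 20 of 27 (74.1%), against 37.9% of all. The E2F letters TTTGGCGC stood in 6 of 24 replication genes (25%), against 0.537% of all and 1.04% of tested genes. Among genes called lower TTTGAA stood in 14.2%, among genes called higher in 9.61% and among genes not called in 10.9%. Ube2c (chr2:164769679-164769978, plus strand) and Mcm5 (chr8:75109259-75109558, plus strand, both GRCm38.p6) are shown because they changed most among the holders of each motif. Capitals mark TTTGAA and CCAAT on either strand in Ube2c, where 1 TTTGAA and 6 CCAAT matches were found and 2 of the CCAAT matches overlap, and TTTGGCGC in Mcm5. A match describes the letters and is not evidence of a bound site.
Ube2c: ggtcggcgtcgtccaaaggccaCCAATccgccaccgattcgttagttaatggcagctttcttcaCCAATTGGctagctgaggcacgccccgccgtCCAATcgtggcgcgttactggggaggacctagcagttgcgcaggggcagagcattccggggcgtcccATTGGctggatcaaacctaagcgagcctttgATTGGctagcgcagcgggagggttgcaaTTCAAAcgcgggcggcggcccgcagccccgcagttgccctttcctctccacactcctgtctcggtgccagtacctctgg
Mcm5: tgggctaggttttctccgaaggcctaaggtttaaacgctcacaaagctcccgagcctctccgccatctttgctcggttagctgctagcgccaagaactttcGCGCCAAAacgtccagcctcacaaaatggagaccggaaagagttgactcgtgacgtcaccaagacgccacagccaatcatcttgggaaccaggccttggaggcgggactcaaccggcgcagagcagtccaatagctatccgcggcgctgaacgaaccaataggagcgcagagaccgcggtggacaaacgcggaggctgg

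Genes of sterol synthesis fell nearly throughout. Idi1, the isomerase that makes the second isoprenoid building block, was at 5.97, 5.69 and 4.09 in OOX, against 8.66, 8.43 and 9.16 in COC, with OOX replicate 3 the lowest of the OOX arrays. Tm7sf2, a sterol reductase gene, was at 6.64, 6.95 and 5.60 in OOX, against 9.22, 9.18 and 9.35 in COC. Of 19 tested cholesterol synthesis genes 17 fell and none rose, 16 of them by at least 2-fold, with a median of -1.75. Over all tested genes 20.7% fell, and 14.4% fell in series 1 with estrogen. Idi1 fell by 3.50 ± 0.406 and Tm7sf2 fell by 2.85 ± 0.292, with limma adjusted p-values of 6.64e-07 to 3.00e-06, and Sqle, the squalene oxidase gene, fell by 1.57 ± 0.227. In series 1, where estrogen was present, 17 fell, with a median of -2.51, and with the Gapdh term the median was -1.60, with 5 genes called. CCAAT stood in the windows of 15 of 16 of these genes (93.8%), against 38% of tested genes. Idi1 (chr13:8885356-8885655, plus strand, GRCm38.p6) changed most and is shown with both of its CCAAT matches, on either strand, in capitals.
Idi1: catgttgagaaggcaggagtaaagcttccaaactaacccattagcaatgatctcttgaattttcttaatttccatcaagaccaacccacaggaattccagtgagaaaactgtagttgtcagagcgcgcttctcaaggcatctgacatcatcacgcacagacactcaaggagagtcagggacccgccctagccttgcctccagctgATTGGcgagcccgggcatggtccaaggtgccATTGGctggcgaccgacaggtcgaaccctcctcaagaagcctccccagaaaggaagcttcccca

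Genes of protein synthesis and quality control were lower by smaller amounts. Sdf2l1, an endoplasmic reticulum co-chaperone, was at 5.98, 6.10 and 6.16 in OOX, against 8.63, 8.42 and 8.38 in COC. Dnajc3, which restrains the kinase PERK, was at 8.28, 7.98 and 8.51 in OOX, against 10.47, 10.48 and 10.67 in COC. All OOX arrays lay below all COC arrays for both. Sdf2l1 fell by 2.40 ± 0.209, Dnajc3 fell by 2.28 ± 0.237, Manf, a secreted factor of the stressed endoplasmic reticulum, fell by 2.23 ± 0.171, and Hsp90b1, the chaperone GRP94, fell by 1.84 ± 0.294. Of 22 chaperone and unfolded protein response genes 14 fell and 1 rose, with a median of -0.74, and with array series as a term 9 fell. The background for these counts is 20.7% of all tested genes that fell and 18.0% that rose. Of 33 proteasome genes 19 fell and 1 rose, with a median of -0.67; the regulatory subunit gene Psmd7 fell by 2.13 ± 0.204 and the core subunit gene Psmb2 fell by 1.82 ± 0.208. Of 28 ribosome biogenesis genes 14 fell and none rose (median -0.43), among them the small nucleolar ribonucleoprotein genes Nop56 (-2.07 ± 0.169) and Nop58 (-2.19 ± 0.304), and with array series as a term 8 fell. Of 19 cytosolic aminoacyl-tRNA synthetase genes 10 fell and none rose (median -0.63), led by the cysteinyl-tRNA synthetase gene Cars (-1.56 ± 0.246), but without COC replicate 3 the count was 5, and with the beta-actin term it was 6. Splicing factors stood near the background, with 2 rises and 6 falls among 26 genes, and 3 falls without COC replicate 3. Of 19 ribosomal protein genes 3 fell, with a median of -0.11. Inside array series 1 with estrogen, 9 chaperone, 13 proteasome, 5 ribosome biogenesis and 3 synthetase genes fell. The last 2 counts lie near the 14.4% of all tested genes that fell there. With the Gapdh term the medians came to -0.20, -0.36, -0.20 and 0.02 for these 4 lists, and no member was called.

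The chaperone promoters hold an element that is rare elsewhere. The letters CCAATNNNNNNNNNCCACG, the endoplasmic reticulum stress element, which contains the CCAAT box, stood on either strand in the windows of 7 of 19 listed genes (36.8%), against 0.13% of all genes with a window. Over the tested genes it stood in 0.434% of 2074 called lower and in none of 1780 called higher. Dnajc3 (chr14:118937682-118937981, plus strand, GRCm38.p6) changed most among the holders and is shown with the whole element in capitals, which starts 105 bases before the start.
Dnajc3: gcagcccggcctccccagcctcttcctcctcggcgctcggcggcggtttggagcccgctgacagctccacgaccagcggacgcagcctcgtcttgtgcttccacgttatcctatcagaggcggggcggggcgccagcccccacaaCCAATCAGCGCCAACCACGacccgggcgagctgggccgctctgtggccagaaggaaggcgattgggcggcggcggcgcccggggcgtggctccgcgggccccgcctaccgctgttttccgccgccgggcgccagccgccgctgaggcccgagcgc

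Genes of the response to low oxygen and of mitochondrial oxidation include the enzymes that share out pyruvate between lactate and the mitochondria. Pdk1, the kinase that inhibits pyruvate dehydrogenase, was at 8.89, 8.36 and 7.23 in OOX, against 10.07, 10.25 and 10.07 in COC. P4ha2, a collagen prolyl hydroxylase subunit, was at 6.27, 6.65 and 5.48 in OOX, against 8.43, 8.27 and 8.00 in COC. OOX replicate 3 was the lowest array for both. Of 23 genes of the hypoxia response, which include glycolytic enzymes, 12 fell and 2 rose, with a median of -0.69 and, with the Gapdh term, -0.36. Pdk1 fell by 1.97 ± 0.271, P4ha2 fell by 2.10 ± 0.354, the lactate dehydrogenase gene Ldha fell by 1.79 ± 0.144 and the mitophagy receptor gene Bnip3 fell by 1.48 ± 0.217 (limma adjusted p-values of 3.98e-08 to 0.000151). Among the series 1 arrays with estrogen, 13 of the list and 14.4% of all tested genes fell. Of 20 genes of pyruvate dehydrogenase and the TCA cycle 2 rose and 5 fell, among them Idh3a, an isocitrate dehydrogenase subunit (-1.55 ± 0.239), and Fh1, the fumarase gene (-0.90 ± 0.217). Of 17 genes of fatty acid oxidation 3 rose and 1 fell, and the thiolase gene Acaa2 rose by 1.20 ± 0.175. Both counts lie near or under the 38.7% of all tested genes. Among 16 glucose and monocarboxylate transporters 3 rose and 5 fell, and the lactate exporter gene Slc16a3 fell by 1.53 ± 0.229. When array series was a term of the fit, 2 of the transporters fell.

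Lysosomal genes were higher in OOX, with exceptions among the enzymes. Ctsb, the protease cathepsin B, was at 10.52, 10.38 and 9.67 in OOX, against 7.63, 8.02 and 7.58 in COC. Gm2a, the activator of ganglioside breakdown, was at 11.11, 11.08 and 10.63 in OOX, against 9.65, 9.66 and 9.34 in COC. Naglu, an enzyme of heparan sulfate breakdown, was at 8.54, 8.42 and 7.51 in OOX, against 10.08, 10.53 and 10.08 in COC. The groups were apart for all 3, with Naglu the other way round. Of 27 lysosomal genes 15 rose and 3 fell, with a median of 0.62, against 18.0% rising over all tested genes. Ctsb rose by 2.45 ± 0.294, Gm2a rose by 1.39 ± 0.187, Naglu fell by 2.07 ± 0.254 and the alpha-galactosidase gene Gla fell by 1.82 ± 0.25 (limma adjusted p-values of 4.42e-06 to 1.86e-05). In the fit with array series, 10 rose, inside array series 1 with estrogen 7 rose, and with the Gapdh term the median was 0.89 with no gene called. Of 24 autophagy genes 8 rose and 3 fell, and without COC replicate 3 the rises numbered 5, and with array series as a term 3. The E-box CACGTG, found in many lysosomal promoters, stood on either strand in 9 of 23 lysosomal windows (39.1%), against 7.24% of all. Over the tested genes it stood in 10.1%, in 10.7% of those called higher and in 11.1% of those called lower. The window of Naglu (chr11:101069844-101070143, plus strand, GRCm38.p6), the called holder with the largest change, is shown with the E-box in capitals, and this gene fell.
Naglu: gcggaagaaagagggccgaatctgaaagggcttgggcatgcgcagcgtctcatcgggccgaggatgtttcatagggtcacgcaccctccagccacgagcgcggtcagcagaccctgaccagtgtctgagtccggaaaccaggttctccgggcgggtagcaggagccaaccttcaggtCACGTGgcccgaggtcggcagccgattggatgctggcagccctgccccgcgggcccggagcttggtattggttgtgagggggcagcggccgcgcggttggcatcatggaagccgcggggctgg

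Targets of YAP and TEAD, factors that respond to cell shape and contact, and targets of p53 rose more often than they fell. Axl, a receptor tyrosine kinase, was at 8.60, 8.56 and 7.75 in OOX, against 5.64, 5.44 and 5.19 in COC. Ajuba, a LIM protein of cell junctions that inhibits the Hippo kinases, was at 9.87, 10.11 and 10.04 in OOX, against 7.80, 8.05 and 7.80 in COC. Ccn2, which encodes connective tissue growth factor, was at 12.36, 12.04 and 11.85 in OOX, against 10.53, 10.41 and 10.91 in COC. The OOX arrays were above the COC arrays for all 3. Of 20 YAP and TEAD targets 12 rose and 3 fell, with a median of 0.78, where 18.0% of all tested genes rose and 20.7% fell. Axl rose by 2.88 ± 0.358, Ajuba rose by 2.12 ± 0.205, Ccn2 rose by 1.47 ± 0.271 and F3, the coagulation starter tissue factor, rose by 2.20 ± 0.35. With array series as a term 11 rose, inside array series 1 with estrogen 14 rose and none fell, and with the Gapdh term the median was 1.34, with 4 called higher. Cdkn1a, the cell cycle inhibitor p21, was at 11.83, 11.87 and 11.53 in OOX, against 10.02, 10.11 and 9.74 in COC. Of 19 p53 targets 8 rose and 2 fell, with a median of 0.29; Cdkn1a rose by 1.79 ± 0.185, the polo-like kinase gene Plk2 rose by 1.81 ± 0.196, Zmat3 rose by 1.74 ± 0.238 and Trp53inp1 rose by 1.56 ± 0.15. In series 1, where estrogen was present, 12 p53 targets and 10.6% of all tested genes rose. When array series was a term of the fit, 5 rose. The TEAD letters GGAATG stood on either strand in 9 of 14 windows of the YAP and TEAD list (64.3%), against 14.6% of all genes and 11.5% of those called higher. Axl (chr7:25788684-25788983, minus strand, GRCm38.p6) changed most among the holders and is shown with the match in capitals.
Axl: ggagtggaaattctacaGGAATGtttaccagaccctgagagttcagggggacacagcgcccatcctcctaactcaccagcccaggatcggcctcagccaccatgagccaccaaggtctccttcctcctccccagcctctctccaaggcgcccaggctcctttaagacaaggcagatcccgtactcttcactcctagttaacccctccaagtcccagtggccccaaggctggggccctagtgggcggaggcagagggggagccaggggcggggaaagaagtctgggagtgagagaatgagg

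**Figure D4:**
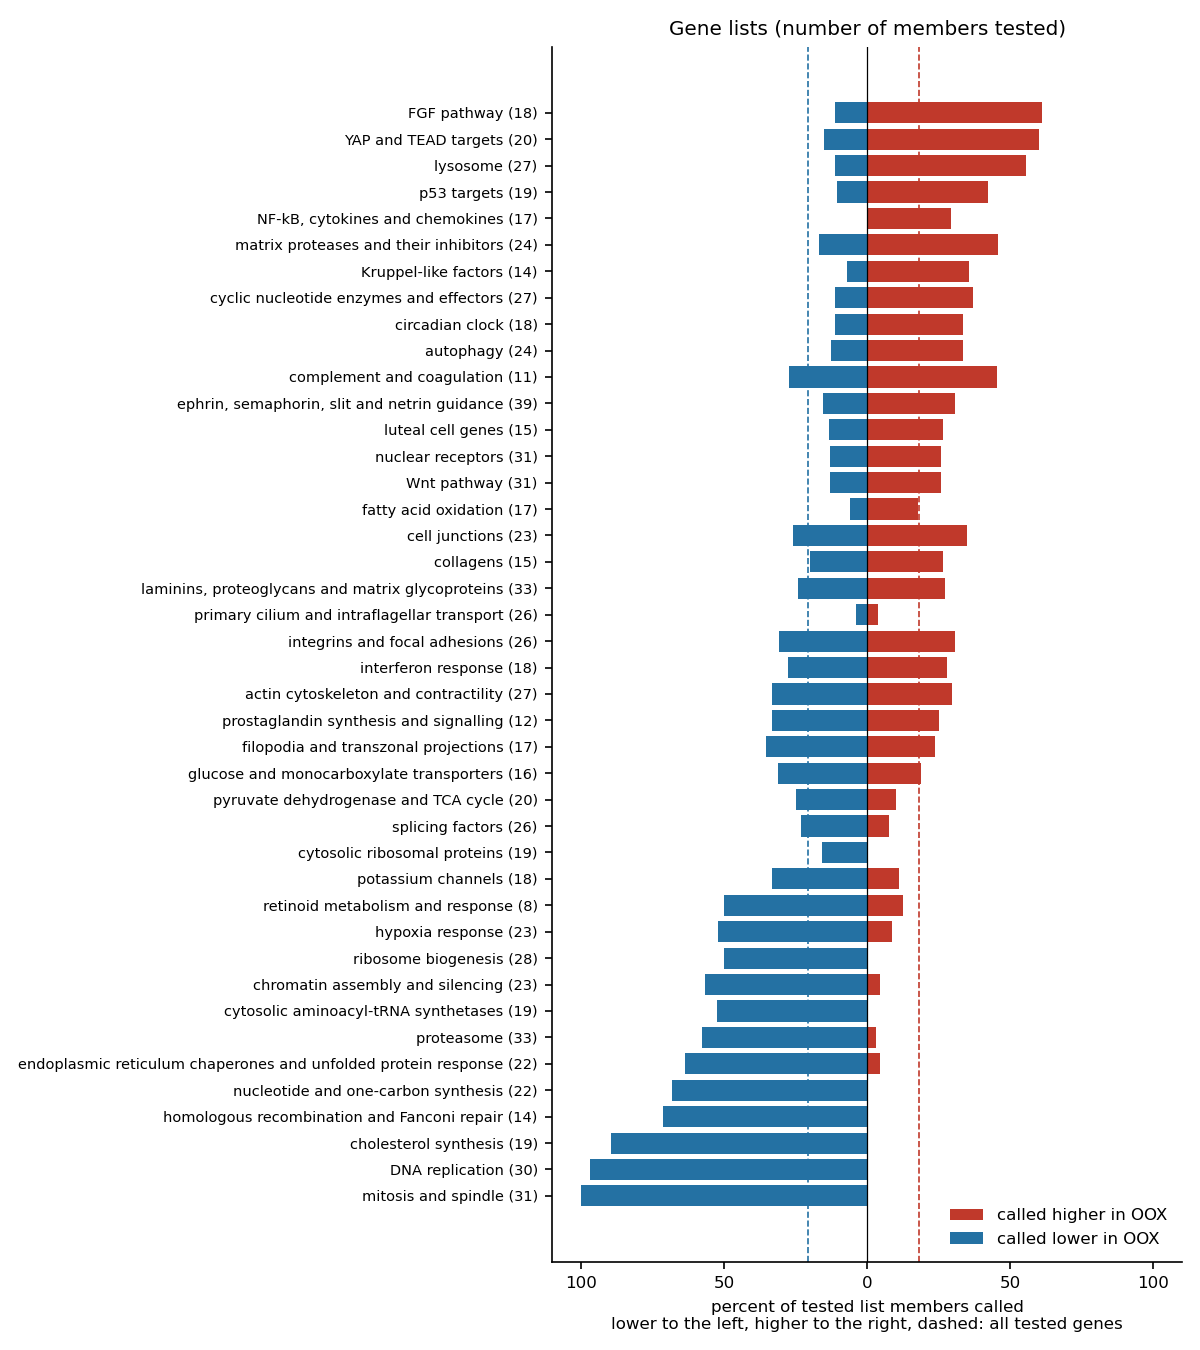
Percent of the tested members (x axis) of 42 gene lists (down the page, number tested in brackets) that were called lower (blue, left) and higher (red, right) in OOX relative to COC. The dashed lines mark the shares of all tested genes, 20.7% lower and 18.0% higher. Mitosis, DNA replication and cholesterol synthesis lie far to the left, with 31 of 31, 29 of 30 and 17 of 19 members called, all lower.

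Genes of the extracellular matrix changed in both directions. Fn1, which encodes fibronectin, was at 9.36, 9.39 and 9.47 in OOX, against 6.16, 6.60 and 6.18 in COC. Col5a2, a chain of fibrillar collagen V, was at 9.02, 9.06 and 10.19 in OOX, against 5.54, 6.11 and 5.82 in COC. Mgp, an inhibitor of calcification, was at 7.22, 7.53 and 7.37 in OOX, against 9.64, 9.88 and 9.80 in COC. The first and second were higher in OOX on every array, and the third was lower. Fn1 rose by 3.09 ± 0.254, Col5a2 rose by 3.60 ± 0.251, Mgp fell by 2.40 ± 0.203, Col6a1 fell by 2.56 ± 0.314 and Col27a1 fell by 2.28 ± 0.201. Of 15 collagens 4 rose and 3 fell, and 2 rose with array series as a term. Of 33 laminins, proteoglycans and glycoproteins 9 rose and 8 fell, and the fibulin gene Fbln2 rose by 2.29 ± 0.274. The falls in that list numbered 4 with array series as a term and 5 with the mean of all probe sets of a gene. Among 24 matrix proteases and their inhibitors 11 rose and 4 fell, and 2 fell without COC replicate 1 or without COC replicate 2. The gelatinase gene Mmp2 was at 8.29, 8.33 and 8.27 in OOX, against 5.76, 6.31 and 5.69 in COC. It rose by 2.38 ± 0.181, the inhibitor gene Timp2 rose by 1.80 ± 0.237 and Mmp11 rose by 1.80 ± 0.269 (limma adjusted p-values of 2.07e-08 to 4.70e-05). Of 11 complement and coagulation genes that passed the filter, out of 21 with a probe set, 5 rose and 3 fell (72.7% called, against 38.7% of all tested genes). Adding array series left 5 rises and 1 fall, and in series 1 with estrogen 3 rose and none fell. C1s1, a protease that starts the complement cascade, was at 7.74, 7.47 and 7.06 in OOX, against 3.96, 3.77 and 3.89 in COC, and Gas6, the ligand of Axl, was at 10.71, 10.33 and 9.88 in OOX, against 6.76, 6.62 and 7.11 in COC; C1s1 rose by 3.55 ± 0.393 and Gas6 rose by 3.48 ± 0.276.

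Adhesion and the cytoskeleton changed in both directions. Tmsb4x, the actin-sequestering thymosin beta 4, was at 11.45, 11.46 and 11.64 in OOX, against 8.45, 7.83 and 8.12 in COC. Itga9, an integrin alpha subunit, was at 6.40, 6.52 and 6.53 in OOX, against 8.46, 9.16 and 8.73 in COC. Gjc1, the gap junction protein connexin 45, was at 6.50, 7.17 and 7.37 in OOX, against 10.01, 9.61 and 9.93 in COC. Tmsb4x rose by 3.38 ± 0.278, Itga9 fell by 2.30 ± 0.199 and Gjc1 fell by 2.84 ± 0.35, each with no overlap between groups. Of 26 integrin and focal adhesion genes 8 rose and 8 fell, and the rises numbered 5 without COC replicate 1 and 5 without COC replicate 3. Beside these and the next counts stand the shares of all tested genes, 18.0% that rose and 20.7% that fell. In the fit with array series, 4 integrin and focal adhesion, 4 actin, 3 junction and 2 filopodia genes fell. Of 27 actin and contractility genes 8 rose and 9 fell, whereas inside array series 1 with estrogen 13 rose and none fell. In that series 10.6% of all tested genes rose and 14.4% fell. The actin-binding protein genes Cdc42ep3 and Cald1 rose by 3.15 ± 0.286 and 2.27 ± 0.373. Of 23 junction genes 8 rose and 6 fell, and the tight junction adhesion molecule gene F11r rose by 2.24 ± 0.26. Of 17 genes of filopodia and transzonal projections, the threads by which cumulus cells reach the oocyte, 4 rose and 6 fell, and 2 rose without COC replicate 1 or without COC replicate 3. The formin gene Diaph3 fell by 1.77 ± 0.243 and Myo10, the motor at filopodial tips, fell by 1.39 ± 0.211, while Evl, an actin polymerase, rose by 1.61 ± 0.378 and the formin gene Fmnl2 rose by 1.12 ± 0.231.

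Genes of the FGF and MAP kinase pathway, its feedback phosphatases among them, rose more often than they fell. Dusp4 was at 8.68, 8.76 and 8.99 in OOX, against 4.37, 4.78 and 4.31 in COC, and Dusp6, a phosphatase of ERK, was at 7.66, 7.17 and 7.29 in OOX, against 5.48, 6.06 and 4.92 in COC. Flrt2, an FGF receptor partner, was at 9.28, 9.13 and 9.28 in OOX, against 7.22, 6.80 and 6.83 in COC. All OOX arrays lay above all COC arrays for these genes. Of 18 FGF pathway genes that passed the filter, out of 29, 11 rose and 2 fell, with a median of 0.59. The share of all tested genes that rose was 18.0%, and 20.7% fell. With no filter on low signal the median over 29 genes was 0.03, and 7 rose with array series as a term. Dusp4 rose by 4.32 ± 0.227, Dusp6 rose by 1.89 ± 0.259, Flrt2 rose by 2.28 ± 0.173 and Flrt3 fell by 1.59 ± 0.247 (limma adjusted p-values of 2.27e-10 to 6.63e-05). Inside array series 1 with estrogen, 7 of the list and 10.6% of all tested genes rose. With the Gapdh term the median was 0.60, with 2 called higher.

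Wnt and guidance genes moved as single members. Wnt5b, a ligand of the noncanonical pathway, was at 5.62, 4.50 and 4.69 in OOX, against 8.53, 8.80 and 8.47 in COC, and Ror1, a receptor of that pathway, was at 5.24, 4.79 and 4.40 in OOX, against 7.65, 7.90 and 7.94 in COC. Both fell, by 3.66 ± 0.271 and 3.02 ± 0.255, with limma adjusted p-values of 1.47e-08 to 6.85e-08. In the other direction the ligand gene Wnt2 rose by 1.46 ± 0.194 and the receptor gene Fzd2 rose by 1.69 ± 0.398. Of 31 Wnt pathway genes 8 rose and 4 fell, 38.7% in all, the same share as over all tested genes, and 4 rose with array series as a term. Of 39 ephrin, semaphorin, slit and netrin genes 12 rose and 6 fell. The semaphorin co-receptor gene Nrp1 was at 8.26, 7.65 and 6.55 in OOX, against 5.13, 4.69 and 4.99 in COC, the netrin gene Ntn4 at 9.60, 9.54 and 9.72 in OOX, against 7.49, 7.60 and 7.01 in COC and the ephrin receptor gene Epha4 at 6.15, 5.74 and 5.07 in OOX, against 7.98, 8.36 and 8.51 in COC. Nrp1 rose by 2.55 ± 0.407, Ntn4 rose by 2.25 ± 0.272 and Epha4 fell by 2.63 ± 0.345.

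Enzymes of cyclic nucleotides, which carry the signal that holds the oocyte in meiotic arrest, were more often higher. Gucy1b1, a subunit of soluble guanylate cyclase, was at 7.70, 7.01 and 6.14 in OOX, against 4.28, 4.48 and 4.13 in COC. Pde5a, a cGMP phosphodiesterase, was at 8.34, 8.46 and 9.55 in OOX, against 7.56, 7.15 and 6.61 in COC. Npr2, the receptor guanylate cyclase of cumulus cells, was at 8.97, 8.90 and 8.63 in OOX, against 8.78, 9.04 and 8.64 in COC, and its change was 0.01 ± 0.221, with a 95% interval of -0.45 to 0.48. The groups overlapped for Npr2 and were apart for the other 2 genes. Gucy1b1 rose by 2.65 ± 0.322, Pde5a rose by 1.68 ± 0.356, the adenylate cyclase gene Adcy6 rose by 1.35 ± 0.294 and the protein kinase A subunit gene Prkar2a fell by 2.07 ± 0.241. Of 27 genes that passed the filter, out of 44, 10 rose and 3 fell, where 18.0% of all tested genes rose and 20.7% fell. With array series as a term 10 rose and 1 fell. Of 18 potassium channel genes 2 rose and 6 fell, and the falls numbered 3 without COC replicate 2 and 1 with array series as a term. The mechanosensitive channel gene Kcnk2 rose by 2.30 ± 0.289 and the related Kcnk1 fell by 1.15 ± 0.237.

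Transcription factors of 3 families were called about as often as all tested genes, of which 38.7% were called. Klf1, a Krüppel-like factor known for its role in red cells, was at 5.40, 4.87 and 5.25 in OOX, against 8.64, 8.88 and 8.75 in COC. Esr1, the estrogen receptor alpha, was at 6.11, 5.98 and 7.70 in OOX, against 9.09, 9.16 and 8.83 in COC, with OOX replicate 3 between the other OOX arrays and COC. Pparg, a nuclear receptor of lipid metabolism, was at 6.97, 6.54 and 5.83 in OOX, against 8.33, 8.77 and 8.51 in COC. Klf1 fell by 3.58 ± 0.171, Esr1 fell by 2.43 ± 0.31 and Pparg fell by 2.09 ± 0.267 (limma adjusted p-values of 8.80e-11 to 8.80e-06). Among the series 1 arrays with estrogen, Klf1 changed by -3.43, Esr1 by -1.50 and Pparg by -1.56, each called. Of 14 Krüppel-like factors 5 rose and 1 fell (42.9% called), with Klf15 (2.10 ± 0.339), Klf6 (1.68 ± 0.235) and Klf5 (1.31 ± 0.206) among the rises. Of 31 nuclear receptors 8 rose and 4 fell (38.7%), and the number that rose was 4 without OOX replicate 1, 5 without OOX replicate 2 and 4 without COC replicate 3. When array series was a term of the fit, 3 nuclear receptors rose and 2 fell. The thyroid hormone receptor gene Thra rose by 1.24 ± 0.153. Of 18 clock genes 6 rose and 2 fell (44.4%), and the clock output gene Dbp rose by 1.37 ± 0.32.

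The remaining lists were small or changed in both directions. Ptgis, the prostacyclin synthase gene, was at 9.74, 9.56 and 8.37 in OOX, against 11.31, 11.60 and 11.69 in COC, and Hpgd, which breaks prostaglandins down, was at 8.79, 8.28 and 9.23 in OOX, against 10.16, 10.59 and 10.52 in COC. Of 12 prostaglandin genes 3 rose and 4 fell: Ptgis fell by 2.31 ± 0.268, Hpgd fell by 1.66 ± 0.222 and the transporter gene Slco2a1 rose by 1.27 ± 0.18. Of 15 genes that mark luteal cells 4 rose and 2 fell, so that 40.0% were called, against 38.7% of all tested genes. Akr1c18, which inactivates progesterone, was at 6.81, 6.31 and 6.58 in OOX, against 5.16, 4.79 and 5.10 in COC and rose by 1.55 ± 0.158, and the lipoprotein receptor gene Scarb1 fell by 1.03 ± 0.161. Of 8 retinoid genes 1 rose (Aldh1a1) and 4 fell, and the retinoic acid carrier gene Crabp2 fell by 1.51 ± 0.158. Without COC replicate 3 the retinoid falls numbered 2, and with array series as a term 1. Of 17 NF-kB, cytokine and chemokine genes that passed the filter, out of 26, 5 rose and none fell, among them the NF-kB subunit gene Relb (1.69 ± 0.297) and Lif (0.85 ± 0.165). In the fit with array series, 3 of them rose, and with a second quantile normalization 9. Of 18 interferon response genes 5 rose and 5 fell, and the falls numbered 3 without OOX replicate 3. With array series as a term 2 rose and 2 fell. Bst2, the antiviral protein tetherin, fell by 1.14 ± 0.14 and Psmb9, a subunit of the immunoproteasome, fell by 1.09 ± 0.221. Genes of the primary cilium gave 1 rise and 1 fall among 26 (7.69%), 4 rises and 1 fall with array series as a term, and 3 rises and 1 fall with the beta-actin term: Ift27 fell by 1.32 ± 0.23 and Ift81 rose by 0.82 ± 0.229, both subunits of the intraflagellar transport complex.

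Probe sets of the same gene did not always give the same answer. Of 21249 single-gene probe sets, 7461 (35.1%) were called, 3374 higher and 4087 lower. Among 5381 genes with 2 or more tested probe sets, 816 had all of them called in one direction, 2262 had only some called, 2207 had none called and 96 had probe sets called in opposite directions. For Usp7, a ubiquitin protease, 1 probe set was at 5.96, 5.95 and 6.39 in OOX, against 7.78, 7.50 and 7.83 in COC, and another was at 8.32, 8.21 and 7.94 in OOX, against 6.37, 6.76 and 7.49 in COC. The first was lower and the second higher in OOX, with called changes of -1.60 and 1.28. On the E2 OOX array of series 3 the first probe set gave 5.55, against 7.71 and 7.44 on the E2 OOX arrays of series 1. For Ints8, a subunit of the integrator complex, 1 probe set was at 4.14, 4.46 and 4.53 in OOX, against 6.17, 5.75 and 6.16 in COC, and another at 6.34, 7.30 and 7.17 in OOX, against 5.74, 6.15 and 5.56 in COC. The second, which represents Ints8 in the gene-level test, rose by 1.12 ± 0.305, a call that was lost with array series as a term. Rap1b, a small GTPase, and Crebbp, a histone acetyltransferase, also had probe sets in both directions, with called changes of -1.24 and 1.11 for Rap1b, whose gene-level call was lost with array series as a term, and -1.56 and 1.07 for Crebbp. Where on a transcript each probe set lies was not used here.

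A second set of arrays addressed the same removal of the oocyte inside 1 array series. In series 1, the 2 E2 OOX arrays and the 3 E2 COC arrays share no array with the OOX and COC groups, though estrogen was present there. Their difference was called for 3055 genes (24.9%), 1295 higher (10.6%) and 1760 lower (14.4%). One of the 2 E2 OOX arrays is the one whose labels conflict, and without it 2240 genes were called, 771 higher and 1469 lower. Of the 3055 genes, 2228 were called in the same direction without estrogen, and 43 were called in the opposite direction. The 2228 are 72.9% of the 3055 and 47.0% of the genes called without estrogen. Among the 2105 genes changed at least 2-fold without estrogen, 1986 had the same sign in series 1 and 1372 were called there in that direction. The share with the same sign over all tested genes is not given here. Ghr changed by 4.16 in series 1 with estrogen, Nrp2 by 3.79, Aldh1a1 by 3.72 and Fdps, the farnesyl diphosphate synthase, by -3.53. Without estrogen the same genes changed by 3.84, 3.83, 3.65 and -3.25. Foxl2 differed by 0.07 there and was not called (limma adjusted p = 0.837), and neither was F3 (0.58) or Dbp (0.70). The Gapdh 3' minus 5' signal was higher in these E2 OOX arrays than in E2 COC as well. The test of the difference between the removal effects without and with estrogen, over all 12 arrays of these groups, was called for 393 genes (3.21%), of which 297 were among the 4743. Array series is spread unlike over these groups, so estrogen and series are not fully separate in this test.

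**Figure D5:**
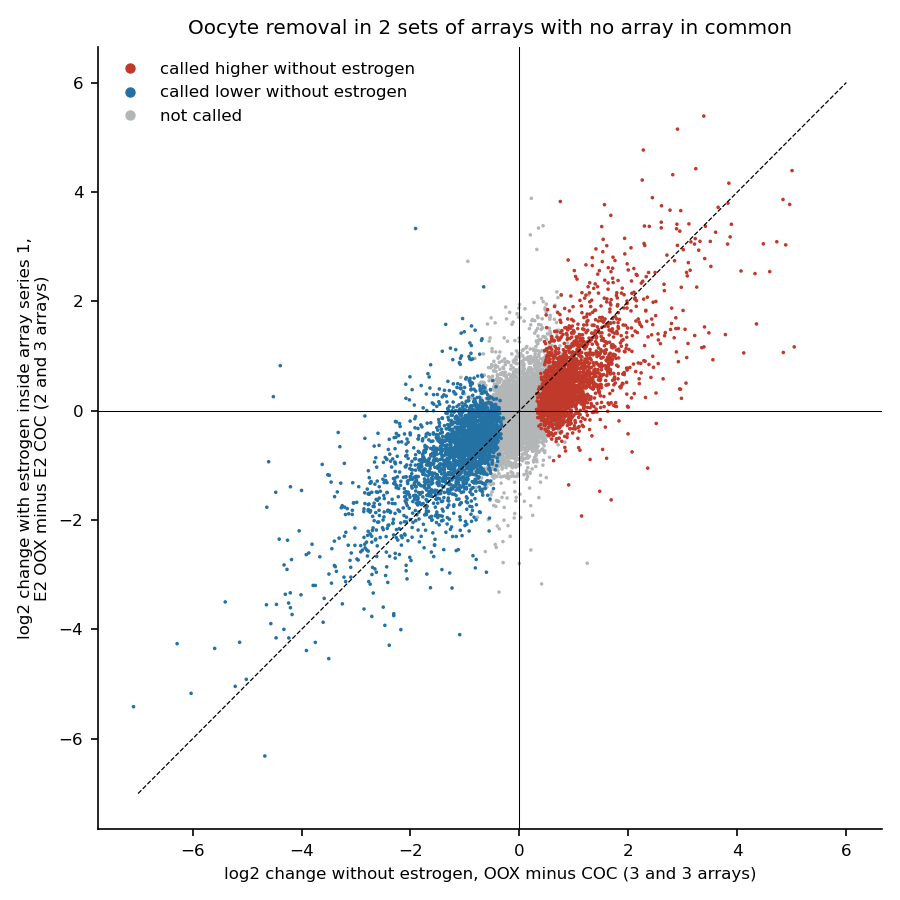
Log2 change on oocyte removal without estrogen (x axis, 3 OOX minus 3 COC arrays) against that with estrogen inside array series 1 (y axis, 2 E2 OOX minus 3 E2 COC arrays), 1 point per tested gene, coloured by the call without estrogen. The dashed line marks equal changes. Of the genes called in both, 2228 share a direction and 43 do not.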

How the data were processed

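Cumulus cells of 18 samples in 6 groups were measured on 1 Affymetrix mouse array each. Per the submitters' processing notes, the authors made the deposited log2 values with RMA in Affymetrix Expression Console 1.1. The values are rounded to 2 decimals. Per the labels' protocols, total RNA was amplified over a pair of rounds and labelled with biotin. Signal over background limits the precision of dim genes, and 3 arrays a group limit it throughout. Of 45101 probe sets, 34945 had 1 gene symbol, 932 several and 9160 none, by GEO's platform annotation with symbols updated through RefSeq tables. A gene was represented by its probe set with the highest mean signal. Genes above the array median on at least 3 of 18 arrays were tested (12246 genes, 21249 probe sets). Group means over all 18 arrays were fitted with lmFit and eBayes in limma 3.58.1 (R 4.3.3), the contrast was OOX minus COC, p-values were adjusted by Benjamini-Hochberg over all tested features, and a gene was called under an adjusted p of 0.05. The fit was tested on simulated data. Alternatives changed the arrays used, array series, weights, filter, normalization, variance prior, replicate block and the choice of probe set, and added 3' minus 5' signals as terms after the data had been seen. The genes named are, by rule, ranks 9 to 20 by size in each direction, the largest called members of each list, precise changes of 2-fold to 4-fold, genes crossing from low to high signal, bright genes and genes with opposing probe sets, of which a choice is given, and markers. Most genes whose call was lost without a single array are not named, a choice made after seeing their values. The members and the gene lists were chosen with earlier results of these data known, and promoter motifs with the lists known. No set test was made.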

Additional observations from a re-analysis of the deposited data

Results flagged for a closer look

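For 36 of the 167 genes named above, the change on oocyte removal differed between cultures without and with estrogen by the interaction test (limma, adjusted over 12246 genes). The test used all 12 arrays of the OOX, COC, E2 OOX and E2 COC groups, and the E2 OOX group includes the array whose labels disagree. Array series is not balanced in it. The OOX arrays lay in series 2 and 3, while most E2 OOX arrays lay in series 1 with the COC and E2 COC arrays. Estrogen and array series are therefore not fully separate in these differences. With array series as a term the test called 383 genes. The named genes were picked by their changes without estrogen. Acta2 changed by -1.91 without estrogen and 2.98 with it (difference -4.88 ± 0.445, limma adjusted p = 8.22e-06). Gm2102 changed by -4.39 without estrogen and 0.79 with it (difference -5.18 ± 0.415, limma adjusted p = 2.81e-06). Sgpp2 changed by -4.52 without estrogen and 0.12 with it (difference -4.63 ± 0.483, limma adjusted p = 2.56e-05). The sign also differed for Amhr2 (1.1), Csrp2 (-2.02), Hpgd (-2.09) and Ptch1 (-2.24), where the value in brackets is the log2 change without estrogen minus that with estrogen. The rise was smaller with estrogen for Akr1c18 (1.23), Chd9 (1.29), Dusp4 (1.54), Fn1 (1.57), Gas6 (1.83), Ier5l (1.19), Mark1 (2.76), Mmp2 (1.41), Mtss1 (1.23), Plat (2.08), Stc1 (2.89) and Tec (1.76). It was larger with estrogen for Cald1 (-2.04), Ntn4 (-1.80) and Tmsb4x (-1.77), genes of actin binding and of a netrin. The fall was smaller with estrogen for 4933431K23Rik (-3.46), Bst2 (-0.95), Col27a1 (-1.85), Cyb5a (-0.92), Gjc1 (-2.15), Gli1 (-1.34), Itga9 (-1.67), Ldha (-0.91), Nop56 (-0.94), Pla1a (-2.65), Rrm2 (-1.34), Smim5 (-2.12), Snx18 (-0.78) and Ube2c (-2.13). Over all tested genes 393 (3.21%) passed this test, and 1743 had an unadjusted p below 0.05.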

How the results depend on the processing

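Without one of the OOX or COC arrays, 3974 to 4850 genes were called, against 4743 with all, 6142 to 7570 probe sets, against 7461, and 292 to 518 genes in the test of the difference between cultures without and with estrogen, against 393. With array series as a term the counts were 3122 genes and 4492 probe sets. With the Gapdh 3' minus 5' signal as a term 298 genes were called, 146 higher and 152 lower. With array weights the difference test called 1321 genes, and OOX replicate 3 had a weight of 0.148. With a second quantile normalization 51.5% of called genes were higher, against 46.5%. Of the 167 named genes, 3 lost their call with array series as a term (Fshr, Ints8 and Rap1b) and 1 with the mean of all probe sets (Rap1b). With the Gapdh term 113 lost it, and the sign turned for Cars (0.536), Hsp90b1 (0.514), Ints8 (-0.563), Myo10 (0.12) and Nop58 (0.584), none of them called. The sign of Ints8 also turned with the mean of all probe sets (-0.07). The causes were not tested. Without OOX replicate 3, 4110 of the 4743 genes were called again. Whether the array numbers pair the samples is not known. Same-numbered OOX and COC arrays correlated at -0.113, 0.034 and -0.024 in their deviations from the group means. These values cannot settle it, as each mean rests on 3 arrays and the groups lay in different array series. With the replicate number as a block 4725 genes and 7433 probe sets were called, with 391 genes in the difference test. No named gene lost its call with this block. Inside array series 1 with estrogen, 2240 genes were called without the E2 OOX array whose labels conflict, against 3055 with it, and those called higher numbered 771 without it, against 1295. Otherwise the total counts of called genes and probe sets stayed within 1.5 times. Among lists with 1 to 3 genes called in a direction, array series as a term changed the number of falls for cytosolic ribosomal proteins (1, against 3), fatty acid oxidation (2, against 1), autophagy (1, against 3), p53 targets (1, against 2), complement and coagulation (1, against 3), YAP and TEAD targets (1, against 3), FGF pathway (1, against 2), cyclic nucleotide enzymes and effectors (1, against 3), Krüppel-like factors (2, against 1) and circadian clock (0, against 2), and the number of rises for splicing factors (0, against 2), pyruvate dehydrogenase and TCA cycle (1, against 2), glucose and monocarboxylate transporters (1, against 3), hypoxia response (1, against 2), prostaglandin synthesis and signalling (1, against 3) and primary cilium and intraflagellar transport (4, against 1). A stricter filter at the 75th percentile leaves fewer members of a list to test. In simulated data on 12246 genes, of which 200 were changed, 69 of 100 changes of log2 size 1 were recovered. Of those of size 2, 96 of 100 were recovered, and there were 12 false calls. Smaller changes were not simulated. Far fewer genes changed there than were called here, and the SD of a gene was the same on all arrays. These rates therefore do not carry over to the comparison.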

Other observations

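Among the 5947 genes left out by the filter on low signal, 335 were called when all genes were tested. The median size of the change over all 5947 genes was 0.127 on the log2 scale. The share called was higher in brighter genes: 24.4%, 36.6%, 46.7% and 47.1% of the genes were called from the lowest to the highest quartile by mean signal.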
